A study of Mus musculus with 8 samples.

Results

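The genes described here encode 10 transcription regulators that are known to respond to GDNF in mouse spermatogonial stem cells or to act beside those that do. They are Etv4, Etv5, Bcl6, Bcl6b, Lhx1, Pou3f1, Id4, T, Eomes and Egr2. They were named individually, not picked by a measured value of this series, although earlier results of these data were known when they were chosen. They are 10 of the 21887 protein-coding genes that RefSeq places on chromosomes 1 to 19, X and Y. What was measured is H3K79me2, the dimethyl mark on lysine 79 of histone H3, by chromatin immunoprecipitation and sequencing. RNA was not analysed here, so neither the level of these genes nor their response to GDNF was measured.

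The cells were germ cells of B6.129S7-Gt(ROSA)26Sor/J mice, a strain whose tissues all carry a LacZ reporter, taken at 7 days of age, and both groups share that background. They had been expanded for 2 months on SNL 76/7 feeders, mouse fibroblasts that remained in the dishes, in serum-free medium containing 10 ng/mL GDNF and 0.5 ng/mL FGF2. The treated group then received EPZ5676 at 2 µM, which blocks DOT1L, the enzyme that methylates H3K79, and the control group received vehicle, in each case for 7 days. The growth protocol names DMSO as the vehicle and the short descriptions of the control samples carry the letters EtOH, and the sources used here do not settle which it was. Both groups were in medium with GDNF, so no sample shows these genes without the factor. The series has 8 samples, 2 H3K79me2 and 2 input samples for each condition, but 1 peak list for each condition. No value below therefore has an error between replicates, no test between conditions could be made, and the read depth is unknown. A gene without a peak is a gene at which the authors' caller listed none, which is not a measurement of 0.

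GDNF binds the co-receptor GFRA1 and the receptor kinase RET on undifferentiated spermatogonia and signals through Src-family kinases, PI3K-AKT and MAPK. Transcription factors lie at the end of this pathway, and Etv5, Bcl6b and Lhx1 are textbook examples of genes that GDNF induces and that cultured stem cells need to renew themselves. DOT1L, the enzyme that makes all H3K79 methylation, acts on transcribed chromatin, and the mark is known to lie over the early part of active genes.

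In control cells 8 of the 10 genes carried H3K79me2 peaks, and no EPZ5676 peak lay on any of the 10. Among all protein-coding genes, 52.7% had a control peak on at least 1 bp of the span and 12.3% had an EPZ5676 peak. T and Eomes, both T-box genes, were the 2 without a control peak. Control peaks covered 69949 of the 142535 bases that the 10 spans add up to, or 49.1%, where 15.5% of all protein-coding spans was covered. After EPZ5676 the covered length was 0 bases. The control shares were pooled over spans of unlike length, with a median of 7833.5 bp for the 10 genes and 17169 bp for all protein-coding genes. Among marked genes the median covered share was 62.5% under 5 kb and 23.0% over 50 kb, so the shares cannot be compared apart from length. Etv5 alone gave 37142 of the 69949 bases. The 8 marked genes held 18 control peaks, from 205 to 13548 bp wide, with fold enrichments over background (the authors' value for each peak) of 2.07 to 4.52.

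The count of 0 after EPZ5676 has to be read against gene length, because EPZ5676 peaks were more often found on long genes. Of the 10 genes, 2 are under 5 kb, 6 are 5 to 20 kb, 1 is 20 to 50 kb and 1 is over 50 kb. Of control-marked genes under 5 kb, 1.37% also had an EPZ5676 peak, and of those of 5 to 20 kb, 5.69% did. The share was 19.1% at 20 to 50 kb, the class of Bcl6, and 40.8% over 50 kb, the class of Etv5. For the 6 marked genes under 20 kb, having no EPZ5676 peak is thus what nearly all marked genes of their size share. Control marking varied less with length above 5 kb: it was 23.2% under 5 kb, 54.5% at 5 to 20 kb, 64.5% at 20 to 50 kb and 68.1% over 50 kb.

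**Figure D1:**
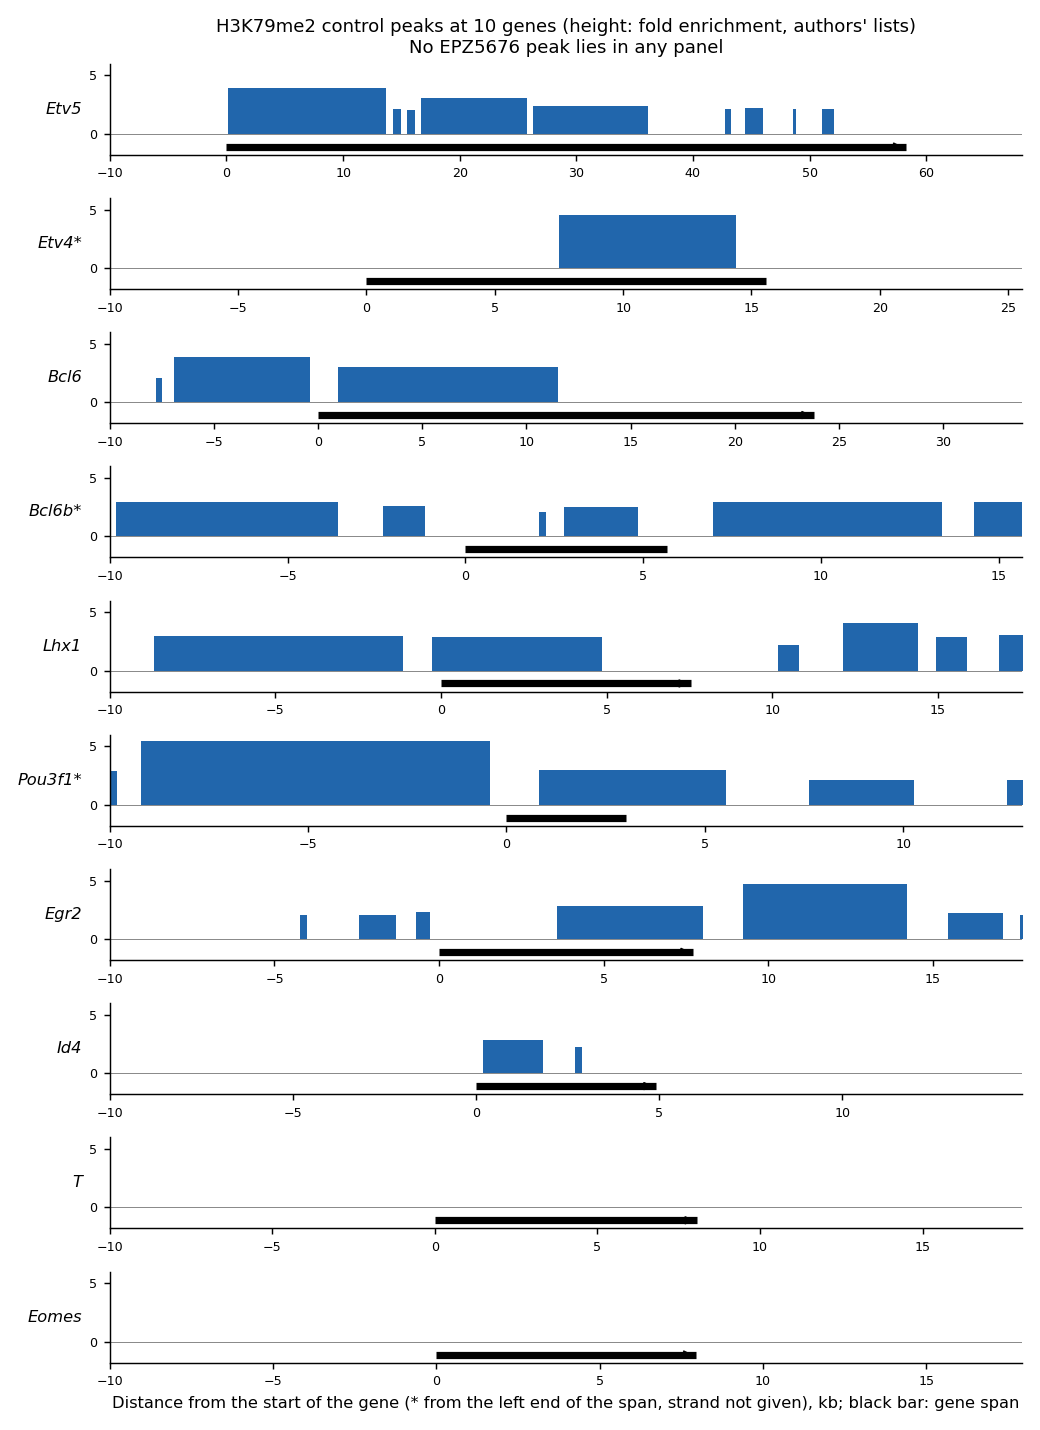
Control H3K79me2 peaks at the 10 genes and within 10 kb on either side, drawn along the distance in kb with the height of each block giving the authors' fold enrichment and the black bar the gene span (arrow: direction of transcription, where known). Peaks lie on 8 genes, the T and Eomes panels are empty, and no panel holds an EPZ5676 peak.

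The ETS-family genes Etv5 and Etv4 had the highest folds of the group. Etv5 encodes the ETS factor whose loss exhausts the stem cell pool of the testis (chromosome 16, 22381313 to 22439570, GRCm38, minus strand). It held 9 control peaks over 37142 bp, or 63.8% of its span, a larger share than in 90.0% of marked genes over 50 kb, whose median was 23.0%. Its widest peak ran 13548 bp from 137 bp past the start of the gene, with a fold of 3.92 and a −log10 q of 10.5. Another 2 blocks, of 9082 bp (fold 3.10) and 9909 bp (fold 2.40), carried coverage to 36163 bp from the start. The other 6 peaks, of 242 to 1537 bp with folds of 2.07 to 2.24, lay between the blocks and in the far part of the gene. The fold of the 3 large blocks was thus lower with each step into the gene. Of the covered bases 72.3% lay in the 29129 bp nearer the start, where the median over marked genes with a known strand was 87.7% for the same part of the span. No control peak lay within 100 kb outside the span on either side.

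Etv4, the close relative of Etv5 and like it a known target of MAPK signalling, had a single control peak of 6909 bp (chromosome 11, 101777246 to 101784154). Its fold of 4.52 was the highest of the 18 peaks and above 94.6% of all control peaks, and its −log10 q was 13.8. The peak covered 44.4% of the 15564 bp span, where the median of marked genes of 5 to 20 kb was 36.6%. Etv1 completes the subfamily with these 2 genes, and its 90402 bp span had no peak in either list. Of 9 other ETS-family genes counted, Etv1 included, 7 had a control peak, led by Erg (164284 bp) and Etv6 (161429 bp), and Etv6, Ets1 and Fli1 had an EPZ5676 peak as well (1715, 820 and 1681 bp). Unlike Etv5 (58258 bp), those 3 genes are all 121229 bp or longer, but so is Erg (227432 bp), which had no EPZ5676 peak. The ETS genes Elk1, Elk3 and Elk4 are counted in a later list and all had a control peak. Of these, Elk3 is near Etv5 in length (63745 bp) and had 3043 bp covered under EPZ5676.

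Bcl6b and Bcl6 encode zinc finger repressors with a BTB domain, of which Bcl6b is the one known to be induced by GDNF and needed for stem cell maintenance. Bcl6b (chromosome 11, 70224127 to 70229798) had 2 control peaks, of 2075 bp (fold 2.54) and 205 bp (fold 2.13), which covered 2280 bp or 40.2% of the span. That highest fold exceeded only 21.9% of the highest folds of marked genes, the lowest standing of the 8. Stronger peaks lay beside it, with 6233 bp (fold 2.93) over Slc16a11 and Slc16a13 on the left and 6454 bp (fold 2.92) on the right. The right-hand peak runs over 0610010K14Rik and the microRNA genes Mir497b, Mir497 and Mir195a, and stops 1282 bp short of the Bcl6b span.

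Bcl6 (chromosome 16, 23965050 to 23988866, minus strand) had 1 control peak of 10556 bp, or 44.3% of its span against a class median of 28.5%, with a fold of 2.98. The peak began 959 bp past the outermost start and lay wholly in the 11908 bp nearer the start. A stronger peak of 6520 bp (fold 3.86) stood on the other side of the start, from 409 bp before it, over the noncoding gene Gm31527, whose span overlaps the start of Bcl6. Between the blocks lay 1367 bp without a peak, which hold the outermost start of Bcl6, while its inner start lay inside the peak. Beyond Bcl6 on that side the next protein-coding gene is Lpp, 404 kb away, a focal adhesion protein gene, covered over 249422 bp in control cells and 6328 bp under the inhibitor. Lpp and Pde10a, next to T, were the only 2 of 21 overlapping or adjacent protein-coding genes with an EPZ5676 peak, whereas 16 of the 21 had a control peak.

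Lhx1 and Pou3f1 are homeobox genes that GDNF induces and whose best-known roles lie in the embryo and the nervous system. Lhx1 (chromosome 11, 84517975 to 84525534, minus strand) had a control peak of 5150 bp with a fold of 2.92, which covered 4872 bp or 64.4% of its span. The peak reached 278 bp past the start into the sequence before the gene, so the start itself was covered, as was that of Lhx1os, a noncoding gene that begins beside Lhx1 on the other strand. A control peak lay on the outermost start in only 11.7% of 9335 marked genes with a start in the table. A further peak of 7522 bp (fold 2.94) followed inside Lhx1os.

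Pou3f1 (chromosome 4, 124657646 to 124660655) had a control peak of 4709 bp with a fold of 3.02, of which 2192 bp lay on the gene and 2517 bp beyond its right end. It covered 72.8% of the span, the highest share of the 10, where marked genes under 5 kb had a median of 62.5%. The strongest peak near any of the genes stood next to it, with 8792 bp and a fold of 5.46 over the noncoding gene Gm2164. That fold was above 97.5% of all control peaks, and the block ended 420 bp from the Pou3f1 span. In the 100 kb on each side of Pou3f1 and of Lhx1, control peaks covered 90.0 and 62.4 kb of 200 kb, the highest 2 values of the group. Near Lhx1, 53945 bp of that coverage lay on the adjacent gene Aatf, 4.39 kb away. Aatf also held the peak of highest fold within 10 kb of Lhx1 (4.07).

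The relatives of these homeobox genes were mostly bare. Of 7 other LIM-homeobox genes only Lhx6 had a control peak (1600 bp, 6.65% of the span), and Lhx2, Lhx3, Lhx4, Lhx5, Lhx8 and Lhx9 had none. Pou3f2, Pou3f3 and Pou3f4, the other genes of the Pou3f class, had none either. Pou2f1, a broadly expressed POU gene, was covered over 83492 bp in control cells and 2693 bp under the inhibitor.

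Control peaks covered 4140 bp of Egr2 and 1858 bp of Id4. Egr2, an early growth response zinc finger gene (chromosome 10, 67534469 to 67542188, plus strand), had a control peak of 4424 bp with a fold of 2.84 that covered 4140 bp, or 53.6% of the span. RefSeq gives it several starts, and the peak began 119 bp after the innermost one. The 3847 bp before the peak, which hold all listed starts, had no peak, and only 6.76% of the covered bases lay in the 3860 bp nearer the left end of the span. Beyond its end stood a peak of 4987 bp with a fold of 4.74 over Ado, a thiol dioxygenase gene 2322 bp away, of which 93.9% was covered. The other genes of the family, Egr1 (3114 bp, 83.0% of the span), Egr3 (3580 bp, 67.6%) and Egr4 (1811 bp, 73.3%), all had control peaks and no EPZ5676 peak.

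Id4 encodes a helix-loop-helix inhibitor whose expression marks the spermatogonia with most stem cell activity (chromosome 13, 48261116 to 48266028, plus strand). It had control peaks of 1653 bp (fold 2.82), from 177 bp after the start, and 205 bp (fold 2.28). They covered 1858 bp or 37.8% of the span, and Id4 was the only 1 of the 8 below the median of its length class (62.5%). The noncoding gene A330033J07Rik begins inside Id4 on the other strand, and the larger peak overlaps both. No control peak lay in the 100 kb on either side of Id4. Of its relatives, Id3 (1212 bp, 77.1%) and Id1 (1060 bp, 91.4%) had a control peak and Id2 had none.

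T, which encodes Brachyury and has been placed downstream of ETV5 in these cells, and Eomes, which marks a subset of GFRA1-positive spermatogonia, had no peak on the gene or within 10 kb in either list. A control peak lay within 10 kb of the span in 60.1% of all protein-coding genes, and an EPZ5676 peak in 15.5%. T (chromosome 17, 8434423 to 8442496) lay 108 kb from the nearest control peak, farther than 57.2% of the 10359 genes without a control peak, whose median was 74.2 kb. The predicted gene LOC115486424, which overlaps the start of T, was bare as well, as was the neighbour T2. Eomes (chromosome 9, 118478186 to 118486132) lay 19.5 kb from a control peak, and its neighbour Golga4, a Golgi protein gene, was covered over 17042 bp. Among 11 other T-box genes, Mga (50258 bp) and Tbx3 (5108 bp) had a control peak and none had an EPZ5676 peak.

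**Figure D2:**
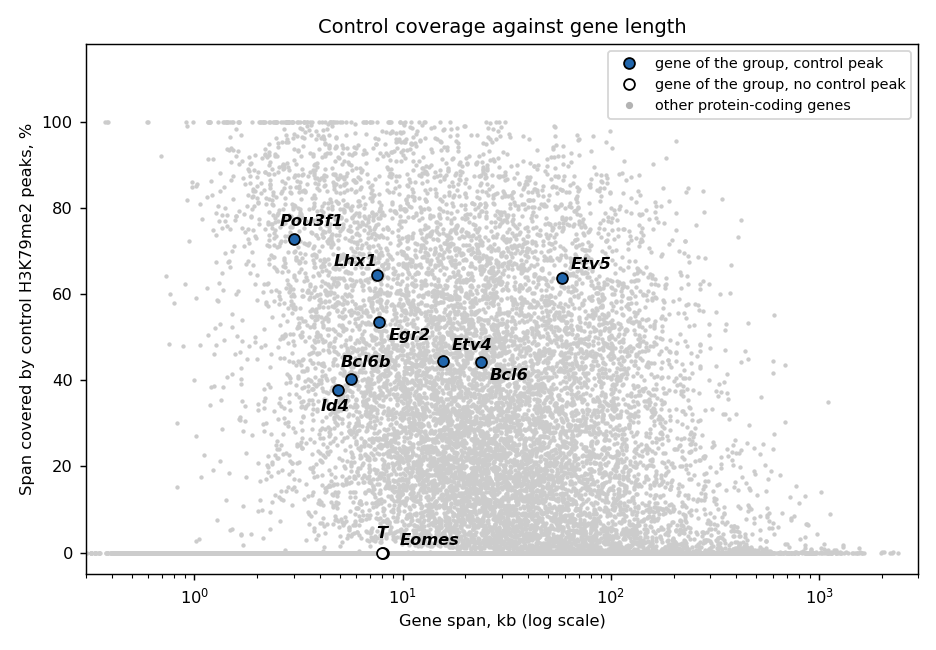
Share of the gene span covered by control peaks in percent against span length on a log axis, with grey points for the other protein-coding genes. The 8 marked genes lie between 37.8% (Id4) and 72.8% (Pou3f1), and T and Eomes lie at 0%.

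For the 8 marked genes, covered share and highest fold were set beside those of marked genes of the same length class. Genes within a class still differ in length, and the shares were not adjusted for this. The covered share was above the median of marked genes of the same length class in 7 of the 8, and the highest fold was above that class's median in 3 of the 8. The 3 were Etv4 (4.52 against 3.25), Etv5 (3.92 against 3.42) and Pou3f1 (3.02 against 2.96), and all 3 were also above the median in covered share. Held to a fold of at least 3, the control list marked only these 3 genes, and 31.7% of all protein-coding genes. Held to the lowest −log10 p of the EPZ5676 list (4.03), it still marked all 8, with 44.7% of all genes marked. For Bcl6, Bcl6b, Lhx1, Pou3f1 and Egr2, the peak of highest fold within 10 kb lay outside the gene.

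The sequence before the start is shown for 6 genes, to set the marked genes beside the 2 bare ones and because at Lhx1 alone a control peak lay on the outermost start. RefSeq's promoter table (GRCm38.p6) holds a start for 7 of the 10 genes, and the others (Etv4, Bcl6b and Pou3f1) are not shown. The 250 bases before the start are given, 5′ to 3′ in the direction of the gene, with each CpG dinucleotide in capitals. The outermost start is used, and for Egr2 the innermost, after which its peak begins. Of the stretches shown, that of Lhx1 was covered by a control peak over all 250 bases and the rest over none. Etv5 and Bcl6 each have a further start inside the gene, at 22438368 and 23981283, whose 250 bases were wholly covered and are not shown.
Lhx1 (chr11:84525535-84525784, minus strand): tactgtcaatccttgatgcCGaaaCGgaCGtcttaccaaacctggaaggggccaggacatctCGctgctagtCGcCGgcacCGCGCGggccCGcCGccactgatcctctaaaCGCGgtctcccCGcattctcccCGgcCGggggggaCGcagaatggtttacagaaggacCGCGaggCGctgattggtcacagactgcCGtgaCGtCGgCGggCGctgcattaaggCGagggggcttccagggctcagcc
Etv5 (chr16:22439571-22439820, minus strand): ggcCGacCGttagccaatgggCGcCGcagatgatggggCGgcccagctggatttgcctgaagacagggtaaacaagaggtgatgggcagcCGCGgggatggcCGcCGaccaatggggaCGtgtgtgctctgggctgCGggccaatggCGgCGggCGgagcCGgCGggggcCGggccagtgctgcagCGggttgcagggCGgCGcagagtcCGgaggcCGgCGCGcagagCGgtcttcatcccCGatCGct
Id4 (chr13:48260866-48261115, plus strand): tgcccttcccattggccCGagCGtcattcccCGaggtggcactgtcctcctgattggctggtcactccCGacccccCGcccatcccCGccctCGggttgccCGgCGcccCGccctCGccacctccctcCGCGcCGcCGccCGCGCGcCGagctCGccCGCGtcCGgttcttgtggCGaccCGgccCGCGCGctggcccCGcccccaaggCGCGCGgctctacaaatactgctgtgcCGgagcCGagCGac
Egr2 (chr10:67537680-67537929, plus strand): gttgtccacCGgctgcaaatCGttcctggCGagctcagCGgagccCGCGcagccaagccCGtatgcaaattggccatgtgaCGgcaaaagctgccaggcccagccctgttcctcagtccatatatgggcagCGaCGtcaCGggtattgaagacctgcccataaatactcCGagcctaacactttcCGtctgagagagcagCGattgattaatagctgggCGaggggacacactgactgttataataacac
T (chr17:8434173-8434422, plus strand): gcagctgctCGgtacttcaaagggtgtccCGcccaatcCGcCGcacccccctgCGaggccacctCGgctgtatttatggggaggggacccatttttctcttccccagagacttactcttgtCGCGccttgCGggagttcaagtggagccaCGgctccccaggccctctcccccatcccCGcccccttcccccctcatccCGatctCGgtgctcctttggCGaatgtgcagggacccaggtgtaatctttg
Eomes (chr9:118477939-118478188, plus strand): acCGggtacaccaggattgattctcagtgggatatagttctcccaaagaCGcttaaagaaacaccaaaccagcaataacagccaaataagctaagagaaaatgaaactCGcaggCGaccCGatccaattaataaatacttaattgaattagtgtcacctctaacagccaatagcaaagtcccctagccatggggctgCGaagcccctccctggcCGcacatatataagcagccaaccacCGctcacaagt

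CpG dinucleotides were frequent before the outermost start of the marked genes, with 35 at Id4, 27 at Etv5, 26 at Lhx1, 26 at Egr2 and 21 at Bcl6, and fewer at T (14) and Eomes (8). Over the whole table the median was 17 for 9335 genes with a control peak (quartiles 10 and 23) and 3 for 8157 genes without (1 and 7). The 5 marked genes were above the median of marked genes, and T and Eomes were above the upper quartile of unmarked genes. Before the inner starts the count was lower, with 18 at Etv5, 13 at Bcl6 and 15 at the innermost Egr2 start, so that Bcl6 and Egr2 then lay close to the 14 of T.

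Few of the short words searched were found in these windows. The ETS, POU, EGR and T-box words are named for families of the factors described here. The E-box, the cAMP response element and the TATA word are not, and finding them says nothing of binding by these factors. No word was searched for the repressors Bcl6 and Bcl6b or for the homeobox factor Lhx1. The ETS word CCGGAAGT (in 3.82% of all 17492 windows), the EGR word GCGTGGGCG (0.72%), the T-box word AGGTGTGA (1.03%), the cAMP response element TGACGTCA (1.98%) and the TATA word TATAAA (12.4%) were in none of the 7 outermost windows on either strand. The E-box CACGTG (6.65%) was at Bcl6, 60 to 55 bases before the start, and at Egr2, 27 to 22 bases before the outermost start. The POU octamer ATGCAAAT (1.62%) was in none of the 7 outermost windows either. It lay 188 to 181 bases before the innermost Egr2 start, whose stretch is printed above. The shares given here are over outermost windows only, so the 1.62% is not a background for that inner window. Only these exact letters were searched.

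Peaks stopped short of the outermost start in 4 of the 5 marked genes with a known start, and this was common among marked genes. The inner starts of Etv5 and Bcl6 lay inside a peak. In the 300 bp window from 250 bases before to 50 after the outermost start, 16.4% of marked genes had any control coverage and 10% were covered throughout. The profile over the 9335 marked genes had 11.7% covered at the start, 76.2% at 1 kb into the gene, 80.3% at its highest point 1600 bp in, and 53.7% at 5 kb. The distance from a start to the next peak edge downstream had a median of 438 bp (quartiles 229 and 928). Etv5 (137 bp), Id4 (177 bp) and Egr2 (119 bp from the innermost start) lay below the lower quartile, and Bcl6 (959 bp) above the upper one.

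**Figure D3:**
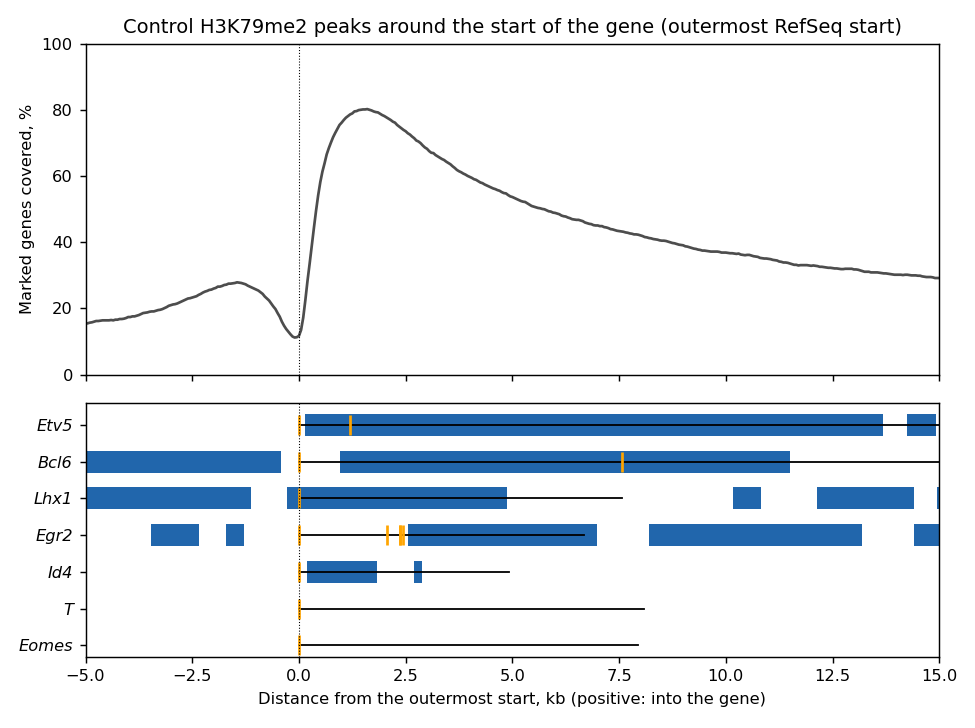
Upper panel, percent of 9335 control-marked genes covered by a control peak by distance in kb from the outermost RefSeq start. Lower panel, control peaks (blue) at the 7 genes with a known start, with the gene as a line and each listed start as an orange tick: the start lies inside a peak at Lhx1 and outside at the others when the outermost start is taken.

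EPZ5676 peaks were distant from all 10 genes. The nearest lay 120 kb from T, 141 kb from Id4, 150 kb from Pou3f1, 157 kb from Bcl6, 221 kb from Bcl6b, 238 kb from Etv5, 334 kb from Lhx1, 405 kb from Egr2, 426 kb from Etv4 and 680 kb from Eomes. The median was 230 kb, against 122 kb (quartiles 35.0 and 313 kb) over 20665 autosomal protein-coding genes, 55.3% of which had no EPZ5676 peak within 100 kb. That share was 71.1% for genes under 5 kb, 59.4% at 5 to 20 kb, 50.8% at 20 to 50 kb and 39.2% over 50 kb. Of these 10 nearest peaks, 7 lay in a protein-coding gene and wholly inside a control peak. They were at Sft2d1 (2054 bp) near T, Acaca (2011 bp) near Lhx1, Jmjd1c (914 bp) near Egr2, Hdac5 (627 bp) near Etv4, Dvl2 (407 bp) near Bcl6b, Igf2bp2 (194 bp) near Etv5 and Mtf1 (148 bp) near Pou3f1. The nearest peaks to Bcl6, Id4 and Eomes lay outside protein-coding genes and outside control peaks. All 10 genes are autosomal, and the EPZ5676 list holds peaks on all 19 autosomes but 0 on X.

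**Figure D4:**
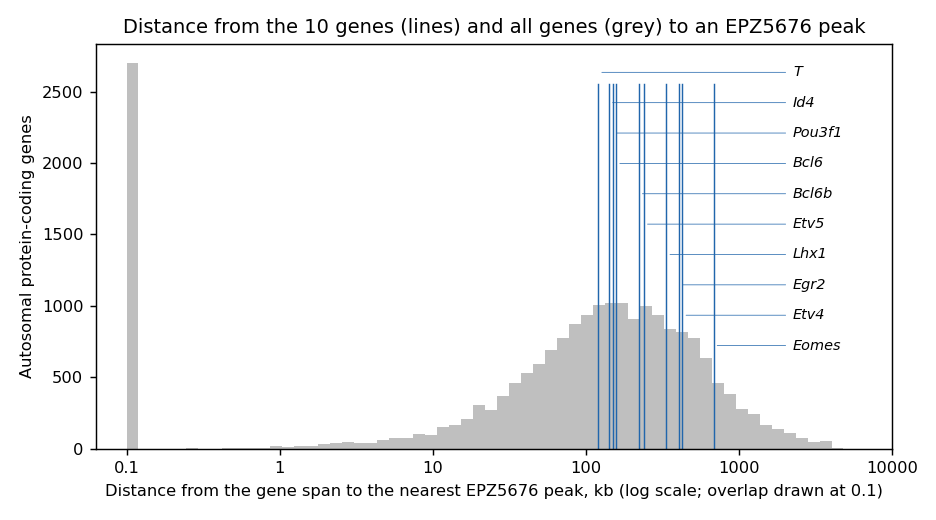
Number of autosomal protein-coding genes by distance in kb (log axis) from the gene span to the nearest EPZ5676 peak, with the 10 genes as vertical lines. Genes that overlap such a peak form the bar at the left edge, and the 10 genes lie from 120 kb (T) to 680 kb (Eomes).

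Genes of GDNF and FGF signalling had EPZ5676 peaks where the 10 factor genes had none. The list of 30 holds Gdnf, its receptors, the FGF receptor genes Fgfr1, Fgfr2 and Fgfr3, and the kinases and adaptors that both pathways use. All 30 had a control peak and 19 also had an EPZ5676 peak, led by Fgfr2 (11747 bp), Ncam1 (4656 bp) and Lyn (4410 bp). That is 63.3% of the list, where 19.3% of all control-marked genes also had an EPZ5676 peak. Gfra1 and Ret, the receptor genes, had 96347 and 14931 bp in the control and no EPZ5676 peak. The signalling genes are much longer, with a median span of 64.3 kb, and all 19 are of 20 kb or more. The list has 25 genes of that length. Among all marked genes, 19.1% of those of 20 to 50 kb and 40.8% of those over 50 kb had an EPZ5676 peak. Only 2 of the factor genes, Bcl6 and Etv5, are of 20 kb or more. Of the 5 under 20 kb none had an EPZ5676 peak, as with the 6 marked factor genes of that size. The difference between the groups can thus not be told apart from one of gene length.

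Immediate early and MAPK feedback genes, a list of mostly short genes, were also marked in the control and mostly without an EPZ5676 peak. The list also holds Srf, Elk1, Elk3 and Elk4, genes of transcription factors that act on immediate early genes. Of the 26, 25 had a control peak, and the 21 marked genes under 20 kb had no EPZ5676 peak. All 4 of 20 kb or more had one, namely Elk3 (3043 bp), Spred2 (1470 bp), Fosl2 (461 bp) and Spred1 (201 bp). Among the marked genes under 5 kb the median covered share was 85.7% in 11 of this list, and 37.8% and 72.8% were the shares of Id4 and Pou3f1. At 5 to 20 kb it was 64.9% in 10 of this list and 49.0% in the 4 marked genes described here, with ranges that overlap (10.9 to 100% and 40.2 to 64.4%). Spred2 (83224 bp) and Spred1 (47458 bp), feedback inhibitors of the MAPK pathway, had the longest control coverage, and Myc, the 1 gene without a control peak, is named after its value was seen.

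Of 24 other regulator genes listed for undifferentiated spermatogonia, 20 had a control peak, led by Zbtb16 (168701 bp) and Dmrt1 (96578 bp). Only 8 of those 20 are of 20 kb or more. Foxo1 alone had an EPZ5676 peak (1568 bp). Most of the list are transcription factor genes, but Nanos2 and Lin28a encode RNA-binding proteins. Gata4, which had no peak, is also among the testis somatic genes below. Of the 40 relatives of the 10 genes counted above, with Zbtb7a, Zbtb7b and Zbtb20 added for Bcl6 and Bcl6b, 19 had a control peak (47.5%, against 52.7% of all genes). Of the 40, Etv6, Ets1, Fli1, Pou2f1 and Zbtb7a also had an EPZ5676 peak. Elk1, Elk3, Elk4, Pou5f1 and Zbtb16 are of the same families and all had a control peak. They were counted in other lists and not among the 40, so the 47.5% depends on which relatives were listed. Whether the 10 genes differ from their relatives was not tested.

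The marked genes were set beside markers of the cells in the dish. All 10 germ cell genes (Ddx4 and Dazl among them) and all 10 genes of undifferentiated spermatogonia, of which Id4 is 1, had a control peak, and 0 and 1 of them an EPZ5676 peak. Of 16 fibroblast feeder genes 10 had a control peak (62.5%) and 4 of those an EPZ5676 peak (Twist2, Prrx1, Fbn1 and Sparc). Col1a2, Col3a1, Vim, Lox, Postn and Dcn had none in either list. Control marking stood at 52.7% over the genome's coding genes and at 64.5% for those of 20 to 50 kb. The median length of the feeder list is 37.0 kb. Its marked genes had a median covered share of 13.5%, against 31.3% for germ cell genes and 52.6% for genes of undifferentiated spermatogonia. These shares were not adjusted for length. Of 10 genes of testis somatic cells 2 had a control peak, Wt1 and Amh, and 0 an EPZ5676 peak. The part of feeder chromatin in the peaks at the 10 genes was not tested.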

How the data were processed

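H3K79me2 was profiled in control and EPZ5676-treated cultures, 2 samples and 2 inputs each, and 1 peak list per condition was analysed. Per the submitters' processing notes the build was mm10 and the tools were bcl2fastq 2.20.0.422, Trimmomatic and deepTools. Not given in the sources used here are the aligner, the peak caller and whether replicates were pooled. The deposited lists have 9 columns without a header: a score per peak, a fold enrichment (ratio over background), and −log10 p and −log10 q values, all the authors' own and used here only to describe or filter peaks. The lowest deposited −log10 p was 2.36 in the control list (47774 peaks) and 4.03 in the EPZ5676 list (9182 peaks), so the lists had different floors.

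Python 3.11.15 with pandas 2.3.3 was used. Peaks were intersected with RefSeq GRCm38.p6 gene spans, the assembly that mm10 names, with 1 bp as the minimum; peaks and bases on overlapping genes count for each. Starts and strands came from the RefSeq promoter table (7 of 10 genes). The interval arithmetic was tested on simulated data. The genes, the comparison lists and the naming rule (the 10 genes, their overlapping or adjacent protein-coding genes, and from each list the 2 with the longest control and up to 4 with the longest EPZ5676 coverage) were chosen with earlier results of these data known; other genes are named as family members, receptors or markers, after their values were seen. No test was run and 0 columns of per-sample values were left unmapped. Alternatives were a larger overlap, flanks, stricter width, q, fold and p filters, and leaving out genes that overlap another protein-coding gene.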

Additional observations from a re-analysis of the deposited data

How the results depend on the processing

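No EPZ5676 peak lay on any of the 10 genes under the 8 alternatives run, including 10000 bp of flank on each side, except that T, which overlaps another protein-coding gene, is not part of the one that leaves such genes out. Only the added flanks could have raised this count. The other settings remove peaks or genes, or leave the EPZ5676 list as it was. The number of genes with a control peak was 8 under 7 of them and 3 with a fold of at least 3. Control-covered bases, 69949 as reported, were 66473 with peaks of at least 1000 bp, 65141 with a −log10 q of at least 2, 64936 with the control list held to the lowest EPZ5676 −log10 p, 31731 with a fold of at least 3, 79748 with 2000 bp and 127675 with 10000 bp added on both sides. Over all protein-coding genes, 6945 had a control peak with a fold of at least 3. Genes with an EPZ5676 peak, 2697 as reported, numbered 1701 with at least 500 bp of the span covered, 529 with peaks of at least 1000 bp, 499 with a fold of at least 3 and 418 with a −log10 q of at least 2. The stricter settings keep fewer peaks by construction. No paired analysis was possible because each condition has 1 peak list. Read depth, which is unknown here, limits what either list can show.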
